A study of Mus musculus with 7 samples.

Results

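The genes described here are the Wnt ligands, their receptors and co-receptors, the secreted proteins that hold them in check, and a few proteins that make Wnts or read their signal inside the cell. A gene was included if its platform symbol was a numbered Wnt, Fzd, Sfrp or Dkk gene, or was Frzb, Wif1, Lrp4, Lrp5, Lrp6, Axin1, Axin2, Lef1, Tcf7, Tcf7l1, Tcf7l2, Nkd1, Nkd2 or Porcn. The rule found 74 probe sets for 49 genes, out of 12393 genes measured, taking for each gene the probe set with the highest average. Tcf7 was not analysed here. Total RNA came from bone marrow stromal cells of mice that carried both OsxCre-mCherry and OcnCre-Topaz, 4 to 6 weeks of age, sorted by flow cytometry on day 6 after tamoxifen. Of the 7 arrays, 3 held Topaz Osteocalcin cells (Ocn+, marked through the osteocalcin promoter of mature osteoblasts) and 4 held mCherry Osterix cells (Osx+, marked through the promoter of the osteoblast transcription factor osterix). Both groups shared the genotype, the tamoxifen and the age, and cells carrying both colours were not analysed here. The labels do not say which arrays share a mouse or whether mice were pooled, so p-values reflect only how these samples vary, which may be technical in origin. The comparison asks how the 2 reporter populations differ, and every difference below is Ocn+ minus Osx+.

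Wnts are lipid-modified secreted proteins. The acyltransferase Porcn adds the lipid, and the ligand then binds a Frizzled receptor together with Lrp5 or Lrp6, which stabilises beta-catenin so that it can work with Lef1 and the Tcf factors on target genes. Sfrp proteins, Frzb and Wif1 bind Wnts outside the cell, while Dkk1 and sclerostin, the product of Sost, block Lrp5 and Lrp6. In bone this pathway drives osteoblast formation, and mature osteoblasts and osteocytes are known sources of its antagonists.

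No Wnt gene passed the test over all genes. In limma, 0 of the 49 had an adjusted p under 0.05, where 0 of 12393 genes did (0%), and the smallest adjusted p among them was 0.731, for Wnt16. An unadjusted p under 0.05 was found for 6 of the 49 genes, or 12.2%, against 5.31% of all genes. These were Dkk1, Sfrp1, Sfrp2, Wnt1 and Wnt16, with higher signal in Ocn+ cells, and Wnt10a, with lower signal. The 3 Ocn+ and 4 Osx+ values did not overlap for 6 genes, 5 of them also in the former set, which is 12.2% against 6.90% of all genes. Of these, Dkk1, Sfrp2, Wnt1 and Wnt16 were higher in Ocn+ cells (4.37% of all genes were) and Wnt10a and Wnt9a lower (2.53% of all genes were). The directions over the family were near the background: 26 of 49 genes had a difference above 0, or 53.1%, against 52.7% of all genes, and the median difference was 0.025 log2 units beside 0.018 over all genes; with each array centred on its median both turned below 0, to -0.0056 and -0.012. Among the 21 Wnt genes whose mean signal exceeded the median gene, 15 were above 0 and the median difference was 0.23, against 3678 of 6197 genes and a median of 0.05. The 95% interval of the difference reached past 1 log2 unit, for 28 of the 49 genes, so these arrays leave the size of most differences wide.

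**Figure D1:**
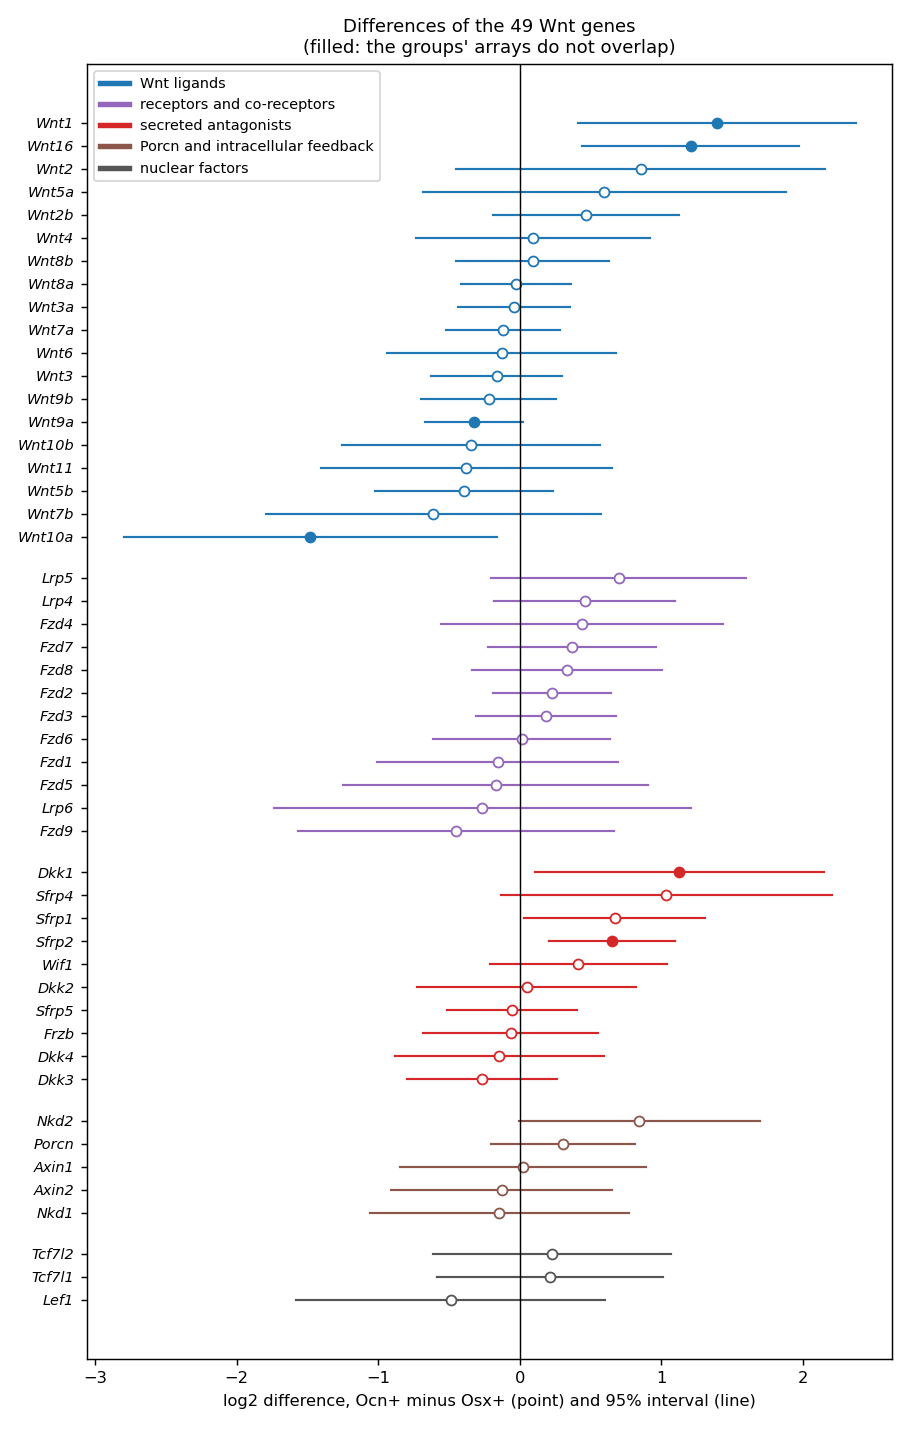
Log2 difference (Ocn+ minus Osx+, x axis) of the 49 Wnt genes (y axis) with the 95% limma interval, grouped by role. Filled points mark the 6 genes whose arrays did not overlap between groups; all of them are ligands or secreted antagonists, and the 12 receptors have open points.

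The secreted antagonists included the 2 genes above the median signal whose groups were apart, Dkk1 and Sfrp2. Of 10 antagonists, 6 had a difference above 0 (52.7% of all genes did), 3 had an unadjusted p under 0.05 (5.31% of all genes) and 2 did not overlap (6.90% of all genes), with a median difference of 0.23. Dkk1, which binds Lrp5 and Lrp6 and keeps them from Wnts, read 10.22, 10.26 and 9.99 in the Ocn+ arrays and 8.78, 8.01, 9.93 and 9.39 in the Osx+ arrays on the log2 scale. All Ocn+ arrays lay above all Osx+ arrays, but Osx+ replicate 3 came close to the lowest of them. The means were 10.15 ± 0.15 (SD, n = 3) and 9.03 ± 0.83 (SD, n = 4), a 2.18-fold brighter signal in Ocn+ cells (difference 1.13, SE 0.43, limma adjusted p = 0.935). Within the arrays of high Xist signal (2 Ocn+, 2 Osx+) the difference came to 1.42. Within those of low Xist signal (1 Ocn+, 2 Osx+) it came to 0.86 (these classes are described with the array pattern). Here and below, the low-Xist differences rest on Ocn+ replicate 1 as their only Ocn+ array.

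Sfrp2, a soluble Frizzled-like protein that binds Wnts, read 12.98, 13.10 and 13.51 in Ocn+ cells and 12.62, 12.36, 12.71 and 12.49 in Osx+ cells. The groups were apart, with Ocn+ replicate 3 the highest. The signal was 1.57-fold brighter in Ocn+ cells (difference 0.65, SE 0.19, 95% interval 0.21 to 1.10, limma adjusted p = 0.758), with a difference of 0.88 within the high-Xist and 0.32 within the low-Xist arrays. Sfrp1, of the same family, read 8.62, 8.18 and 8.63 against 7.18, 7.95, 7.92 and 8.18, so that Ocn+ replicate 2 and Osx+ replicate 4 met and the groups overlapped. Its difference was 0.67 (SE 0.27, limma adjusted p = 0.935), while its other 3 probe sets gave 0.17, 0.54 and 0.16.

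Sfrp4, an Sfrp expressed in mineralizing bone and named after its values were seen, had its highest Osx+ value in replicate 3, as Dkk1 did. It read 12.18, 11.78 and 12.28 in Ocn+ cells and 10.11, 10.45, 12.20 and 11.43 in Osx+ cells. Osx+ replicate 3 stood among the Ocn+ arrays and the other 3 Osx+ arrays below them, and the difference was 1.03 (SE 0.50, limma adjusted p = 0.999). Without Osx+ replicate 3 the difference was 1.42 and the groups did not overlap, and without Osx+ replicate 1 it was 0.72.

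**Figure D2:**
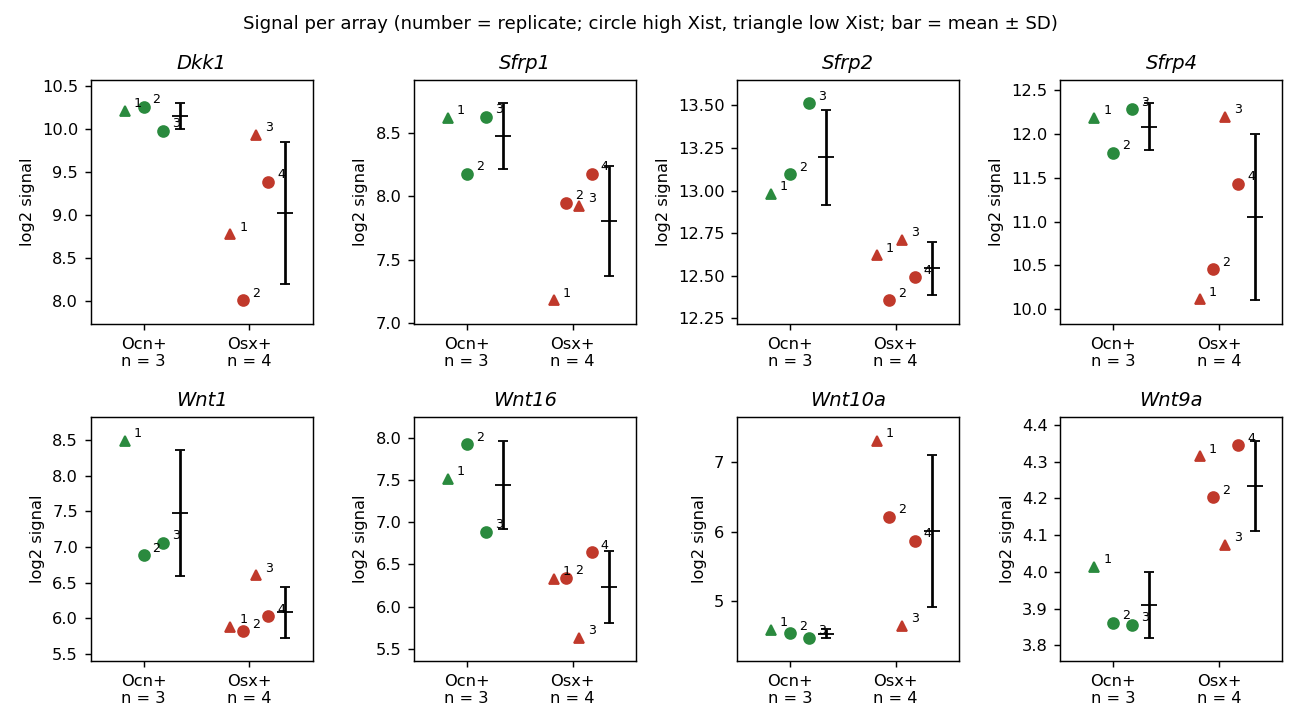
Log2 signal (y axis) of 8 Wnt genes in each array of the Ocn+ and Osx+ groups (x axis), with the group mean ± SD as a black bar; numbers are replicates and symbols the Xist class. Osx+ replicate 3 lies close to the Ocn+ arrays for Dkk1 and Wnt10a and among them for Sfrp4, while all 3 Ocn+ arrays of Sfrp2 and Wnt16 stand clear of the Osx+ arrays.

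The remaining antagonists lay closer together. Dkk3, a secreted member of the Dickkopf family, read 12.64, 13.12 and 13.22 in Ocn+ cells and 13.06, 13.51, 13.00 and 13.49 in Osx+ cells, with overlap and a difference of -0.27 (SE 0.23). Its other probe set gave a tighter picture, with 12.56, 12.56 and 12.51 in Ocn+ cells and 12.98, 12.91, 13.14 and 12.99 in Osx+ cells. There every Ocn+ array lay below every Osx+ array, by -0.46 on average (SE 0.14), with no adjusted p computed for that probe set. Wif1, which binds Wnts directly, stood at 11.93 ± 0.25 against 11.51 ± 0.42 (SD, Ocn+ n = 3, Osx+ n = 4), and Frzb, another soluble Wnt binder, at 10.19 ± 0.45 against 10.26 ± 0.28. Dkk2, Dkk4 and Sfrp5 were dim, each with a mean under the 25th percentile of all genes (6.03), and differed by 0.05, -0.14 and -0.05.

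Promoter sequence is shown for 3 of the 4 genes that stood higher in Ocn+ cells without overlap, from the RefSeq windows before the start (GRCm38.p6): Dkk1 at chr19:30549497-30549746 on the minus strand, Wnt1 at chr15:98789607-98789856 on the plus strand and Wnt16 at chr6:22287977-22288177 on the plus strand. Sfrp2, which also stood higher without overlap, is not shown because its window lies inside its annotated gene. Each run ends at the base before the annotated gene, which leaves 201 bases for Wnt16, and reads 5′ to 3′ along the gene's strand. Capitals mark the core letters bound by Lef1 and Tcf factors, searched as CTTTGA on both strands (TCAAAG when read on the other strand).
Dkk1: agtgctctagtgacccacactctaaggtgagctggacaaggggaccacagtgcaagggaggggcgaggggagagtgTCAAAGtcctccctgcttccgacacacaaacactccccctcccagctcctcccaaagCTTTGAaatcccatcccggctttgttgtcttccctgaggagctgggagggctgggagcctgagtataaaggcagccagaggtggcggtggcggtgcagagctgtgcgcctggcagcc
Wnt1: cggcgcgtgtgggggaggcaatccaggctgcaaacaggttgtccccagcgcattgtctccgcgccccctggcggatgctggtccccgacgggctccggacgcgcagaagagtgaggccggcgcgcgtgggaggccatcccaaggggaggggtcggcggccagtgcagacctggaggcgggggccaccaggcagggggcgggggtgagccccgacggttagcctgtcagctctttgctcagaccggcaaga
Wnt16: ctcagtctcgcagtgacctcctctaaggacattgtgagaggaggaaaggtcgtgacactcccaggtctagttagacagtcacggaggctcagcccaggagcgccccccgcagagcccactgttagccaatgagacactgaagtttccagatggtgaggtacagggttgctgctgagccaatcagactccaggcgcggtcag
The Dkk1 run held the letters in both orientations, with first bases 174 and 117 bases before the start, and the other 2 runs held none. Among all 32851 RefSeq windows, each searched over its full 250 bases before the start, 13.8% held the motif, and among the 39 windows of the 32 Wnt genes with an entry 6 did, or 15.4%. The other windows with it belonged to Frzb, Fzd1, Lef1, Wnt11 and Wnt5b. A match is a description of the letters, and binding was not measured.

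The ligands were mostly dim and moved in both directions. Of 19 Wnts, 7 had a difference above 0 (36.8%, against 52.7% of all genes) and the median was -0.12. An unadjusted limma p under 0.05 was found for 3 (15.8%, against 5.31% of all genes). The groups were apart for 4 (21.1%, against 6.90%), 2 in each direction. A mean under the 25th percentile of all genes was found for 11, and only Wnt5a and Wnt5b exceeded the median gene. Whether the dim signals lie above background is not known. Wnt1, a ligand of the beta-catenin branch that is needed for normal bone mass, read 8.49, 6.89 and 7.06 in Ocn+ cells and 5.89, 5.82, 6.60 and 6.03 in Osx+ cells. The groups were apart, with Ocn+ replicate 1 far above the rest. The difference was 1.39 (SE 0.42, limma adjusted p = 0.789), or 2.63-fold, and it was 0.89 without Ocn+ replicate 1.

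Wnt16, a ligand made by osteoblasts that preserves cortical bone, read 7.51, 7.92 and 6.89 in Ocn+ cells against 6.33, 6.34, 5.63 and 6.64 in Osx+ cells. All Ocn+ arrays were above all Osx+ arrays, 2.31-fold on average (difference 1.21, SE 0.33, 95% interval 0.44 to 1.97, limma adjusted p = 0.731). The differences among high-Xist and low-Xist arrays were 0.91 and 1.54 for Wnt16 and 1.05 and 2.24 for Wnt1.

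Wnt10a, a ligand of the beta-catenin branch, went the other way. It read 4.58, 4.53 and 4.47 in Ocn+ cells and 7.31, 6.21, 4.64 and 5.86 in Osx+ cells. The Ocn+ arrays lay together near the bottom of the scale, Osx+ replicate 3 just above them, and the other Osx+ arrays well above. The difference was -1.48 (SE 0.56, limma adjusted p = 0.928); it was -1.94 without Osx+ replicate 3, -1.54 among high-Xist arrays and -1.39 among low-Xist arrays. Wnt9a also did not overlap, at 4.01, 3.86 and 3.86 against 4.32, 4.20, 4.07 and 4.34, but the difference of -0.32 (SE 0.15, limma adjusted p = 0.983) was small and lay among the dimmest genes.

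The brighter ligands were Wnt5a and Wnt5b, which act largely outside the beta-catenin branch. Wnt5a read 10.22, 11.55 and 11.25 in Ocn+ cells and 9.29, 11.11, 10.06 and 11.18 in Osx+ cells. The 4 high-Xist arrays lay above the 3 low-Xist arrays, and within each class the Ocn+ arrays lay above the Osx+ arrays. The difference was 0.60 (SE 0.54), and 0.22 without Osx+ replicate 1. Wnt5b read 11.08, 11.22 and 10.78 against 11.99, 11.14, 11.52 and 11.03, with overlap and a difference of -0.39 (SE 0.27), or -0.20 without Osx+ replicate 1. Among the others, Wnt2 differed by 0.85 (SE 0.55), Wnt2b by 0.47 (SE 0.28) and Wnt7b by -0.61 (SE 0.50), all with overlap. Without Ocn+ replicate 1 the Wnt2 and Wnt2b differences were 0.22 and 0.14, and without Osx+ replicate 1 that of Wnt7b was -0.18. Wnt4, Wnt10b and Wnt11, known in skeletal cells, differed by 0.09, -0.34 and -0.38. Differences of the remaining ligands (Wnt3, Wnt3a, Wnt6, Wnt7a, Wnt8a, Wnt8b and Wnt9b) lay between -0.22 and 0.09.

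Receptor genes stayed near the background. Of the 12 receptors and co-receptors, 8 had a difference above 0 (66.7%, against 52.7% of all genes). An unadjusted limma p under 0.05 was found for 0 (5.31% of all genes) and 0 were apart (6.90% of all genes). In 12 genes such counts cannot be told from those shares. The median difference was 0.21 and every limma adjusted p was 0.999. Lrp5, the co-receptor whose loss lowers bone mass, was the member of this class with the largest difference and is named after its values were seen. Its means were 9.98 ± 0.27 for the 3 Ocn+ and 9.29 ± 0.69 for the 4 Osx+ arrays (SD), which differ by 0.70 (SE 0.38), or by 0.39 without Osx+ replicate 2. Lrp4, a receptor that presents sclerostin, read 12.24, 12.43 and 12.70 in Ocn+ cells and 11.52, 11.75, 12.49 and 12.23 in Osx+ cells. As for Sfrp4, Osx+ replicate 3 was the Osx+ array that stood among the Ocn+ arrays, and the difference was 0.46 (SE 0.27), or 0.30 without Osx+ replicate 1. Lrp6, the close relative of Lrp5, differed by -0.26 with a standard error of 0.63, and its 4 high-Xist arrays all lay above its 3 low-Xist arrays.

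The Frizzled genes had a median difference of 0.19 over 9 genes, and 6 of them were above 0 (66.7%, against 52.7% of all genes). Fzd7 read 11.12, 11.63 and 11.76 in Ocn+ cells and 10.92, 11.47, 10.78 and 11.36 in Osx+ cells, with overlap and a difference of 0.37 (SE 0.25, 95% interval -0.22 to 0.96). Fzd2 differed by 0.23, Fzd8 by 0.33, Fzd4 by 0.44, Fzd3 by 0.19 and Fzd6 by 0.01. Fzd1, Fzd5 and Fzd9 had differences of -0.16, -0.17 and -0.45, and the 95% interval of each of the 9 included 0.

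Porcn and the intracellular feedback genes also overlapped. Porcn read 10.27, 9.97 and 9.96 in Ocn+ cells and 9.83, 9.34, 10.11 and 9.75 in Osx+ cells. Osx+ replicate 3 again stood among the Ocn+ arrays, with the other Osx+ arrays below, and the difference was 0.31 (SE 0.22). Axin2, a target that feeds back on beta-catenin and is often read as a gauge of pathway activity, is named after its values were seen. Its means were 9.64 ± 0.033 for the 3 Ocn+ and 9.76 ± 0.62 for the 4 Osx+ arrays (SD), and the 95% interval of the difference ran from -0.91 to 0.65.

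Axin1, the scaffold of the complex that marks beta-catenin for destruction, read 10.14, 9.91 and 9.44 against 10.60, 9.53, 9.97 and 9.12, a difference of 0.025 (SE 0.37) whose sign turned with each array centred (-0.0056). Its dimmer probe set read 7.83, 7.90 and 7.62 in Ocn+ cells and 7.61, 7.24, 7.29 and 7.32 in Osx+ cells, without overlap by a narrow margin, and differed by 0.42 (SE 0.17). Of the Naked cuticle genes, which dampen Dishevelled, Nkd1 differed by -0.14 (SE 0.39) and Nkd2 by 0.84 (SE 0.36, limma adjusted p = 0.945), the latter named after its values were seen and down to 0.50 without Ocn+ replicate 1.

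The nuclear factors did not separate the groups. Tcf7l1, often a repressor, read 10.50, 10.12 and 10.17 in Ocn+ cells and 9.85, 9.48, 10.91 and 9.95 in Osx+ cells, where replicate 3 was the highest of all arrays, and it differed by 0.21 (SE 0.34). Tcf7l2 read 10.73, 11.72 and 11.74 against 10.58, 11.64, 10.97 and 11.49. It followed the Xist class, and its difference was 0.23 (SE 0.36) by this probe set and 0.52, 0.38 and 1.00 by the other 3. Lef1 was dim, with means of 5.14 ± 0.26 over the 3 Ocn+ and 5.62 ± 0.88 over the 4 Osx+ arrays (SD).

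Across arrays the Osx+ group was the more spread. The SD was larger in the Osx+ group for 34 of 49 genes, or 69.4%, and for 75.4% of all genes; its median was 0.44 in Osx+ and 0.26 in Ocn+ cells over the Wnt genes. The arrays fell into a high and a low class of Xist signal, the noncoding RNA of the inactive X chromosome, with values from 12.33 to 12.96 in the high class and from 4.87 to 5.79 in the low class. The high class held 2 Ocn+ arrays (replicates 2 and 3) and 2 Osx+ arrays (replicates 2 and 4), and the low class held 1 Ocn+ array (replicate 1) and 2 Osx+ arrays (replicates 1 and 3). The classes did not overlap for 15 of the 49 Wnt genes, or 30.6%, against 34.3% of all genes, a share near the background. Dkk2, Dkk3, Frzb, Fzd6, Fzd7, Lrp6, Tcf7l2 and Wnt5a were higher in the high class, and Axin1, Fzd1, Fzd4, Nkd1, Wnt11, Wnt3 and Wnt7b lower. What else differs between the classes is not given in the labels. The difference between reporters had the same sign in both classes for 32 of 49 genes, or 65.3%, against 64.8% of all genes. With the class as a term in limma 0 Wnt genes passed, the smallest adjusted p being 0.127, for Wnt1. In that fit 14 of the 49 had an unadjusted p under 0.05, where 1988 of all 12393 genes did, a smaller share.

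**Figure D3:**
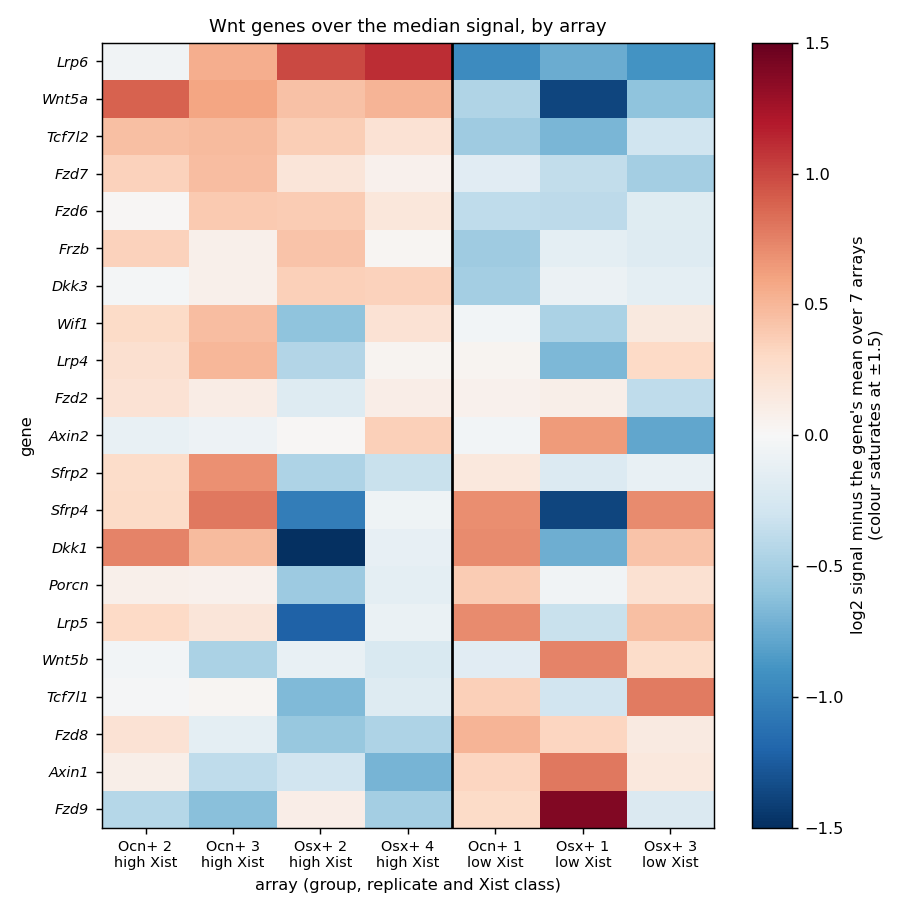
Deviation of the log2 signal from each gene's mean over 7 arrays (colour) for the 21 Wnt genes above the median signal (y axis), by array (x axis), with high-Xist arrays left of the black line. Wnt5a, Tcf7l2 and Fzd7 are red on the left and blue on the right, whereas Dkk1, Sfrp4 and Lrp5 are blue in Osx+ replicates 1 and 2 and red in all Ocn+ arrays and Osx+ replicate 3.

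Single arrays moved the count of genes without overlap. Without Osx+ replicate 3, 13 Wnt genes (26.5%) did not overlap, against 13.1% of all genes, and Axin2, Lrp4, Lrp5, Nkd2, Porcn, Sfrp4 and Tcf7l1 joined the 6 named above. Without Ocn+ replicate 1 the count was also 13, against 13.4% of all genes, and the joining genes were Fzd2, Fzd7, Tcf7l2, Wif1, Wnt3, Wnt5a and Wnt7b. For 42 of the 49 genes, leaving out some single array moved the difference by over 1.5 times or turned its sign. With any of the 7 arrays left out 0 Wnt genes passed in limma, the smallest adjusted p being 0.271, for Wnt10a without Osx+ replicate 3.

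Other genes of the pathway were read from lists chosen with earlier results of these data known. Of 73 listed genes 62 were measured, 0 passed in limma, 2 had an unadjusted p under 0.05 (3.23%, against 5.31% of all genes) and 4 did not overlap (6.45%, against 6.90%). Both shares are at or below the background, so the genes named next are descriptions. Differences above 0 were found for 43 (69.4%, against 52.7% of all genes), with a median of 0.14 beside 0.018 over all genes. The lists were not tested as sets. Among 16 receptors and co-factors, the planar polarity protein Vangl2 read 8.42, 7.76 and 7.87 in Ocn+ cells and 7.20, 7.05, 7.80 and 7.14 in Osx+ cells, a difference of 0.72 (SE 0.26, limma adjusted p = 0.888) with Osx+ replicate 3 inside the Ocn+ range. Ror2, a Wnt5a receptor, was the gene that lay lower without overlap, at 9.99, 10.31 and 10.15 in Ocn+ cells against 10.72, 10.35, 10.44 and 10.45 in Osx+ cells, and differed by -0.34 (SE 0.16). In the 7 measured modulators, 6 differences were above 0 (85.7%, against 52.7% of all genes). Sost, whose product sclerostin blocks Lrp5 and Lrp6 and is a mark of osteocytes, read 10.01, 9.21 and 8.92 against 7.53, 7.70, 9.57 and 8.43. Its difference was 1.07 (SE 0.53), with Osx+ replicate 3 again among the Ocn+ arrays, and the related antagonist Sostdc1 differed by 0.80 (SE 0.43).

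Inside the cell, 19 of 24 genes were above 0 (79.2%, against 52.7% of all genes) with a median difference of 0.09. Dvl2, a Dishevelled scaffold, differed by 0.38 (SE 0.16, limma adjusted p = 0.940). Pygo2, a beta-catenin co-factor, differed by 0.28 (SE 0.16) and the small GTPase Rhoa by 0.07 (SE 0.13). The arrays of all 3 were apart, which is 12.5% of the 24 against 6.90% of all genes. All 3 were higher in Ocn+ cells, as 4.37% of all genes were. Beta-catenin itself, Ctnnb1, which was picked with its values known, had a difference of -0.05 (SE 0.19). Of 15 known targets 8 were above 0 (53.3%, against 52.7% of all genes) and 0 had an unadjusted limma p under 0.05 (5.31% of all genes). The target genes of smallest p were Smad6, an inhibitor of BMP signals, with a difference of 0.83 (SE 0.39), and Id2, an inhibitor of helix-loop-helix factors, with 0.48 (SE 0.25).

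Markers of other cells are given beside these results as levels, since 0 of the 85 markers measured passed in limma. An unadjusted limma p under 0.05 was found for 36 of the 85, a larger share than the 5.31% of all genes. The lists were chosen with earlier results of these data known. The 7 osteocyte markers all had a higher mean in Ocn+ cells, with list means of 10.54 to 10.88 in Ocn+ arrays and 8.74 to 10.47 in Osx+ arrays and Osx+ replicates 3 and 4 the highest of the latter. Without Sost, which is on that list, the means were 10.63 to 11.21 in Ocn+ arrays and 8.94 to 10.76 in Osx+ arrays, so the groups then overlapped. All 10 endothelial markers were higher (9.81 to 10.51 against 6.04 to 9.09, with Osx+ replicate 3 nearest), as were all 9 neutrophil markers (11.42 to 11.64 against 7.50 to 11.04) and all 6 measured osteoclast markers (11.15 to 11.69 against 8.37 to 10.76). The 7 stromal reticular and adipocyte markers were higher in Ocn+ cells for 6 genes (list means 8.61 to 9.52 against 7.999 to 8.84), and 3 of 7 mural markers were (10.40 to 10.94 against 9.85 to 11.13). Megakaryocyte and erythroid markers were higher for 1 of 4 each (8.06 to 8.89 against 8.32 to 9.13, and 6.07 to 8.57 against 6.25 to 8.71), B lymphoid for 3 of 5 (7.12 to 7.95 against 6.86 to 8.12) and T lymphoid for 3 of 4 (5.11 to 5.58 against 4.87 to 5.31). Of 8 macrophage markers 2 were higher in Ocn+ cells (list means 9.76 to 11.13 against 10.96 to 12.54), and of 8 chondrocyte markers 1 was (10.16 to 11.67 against 10.86 to 13.25). Their part in the Wnt differences was not tested, and in sorted bulk samples fewer cells of a type and less RNA per cell cannot be told apart. The 6 measured osteoblast markers, Sp7, Col1a1, Col1a2, Alpl, Ibsp and Dlx5, were above the median gene. Their list means were 13.28 to 13.64 in Ocn+ and 13.24 to 13.57 in Osx+ arrays. Sp7, the gene of osterix, whose promoter marks the Osx+ group, was not higher in Osx+ cells. Its means were 12.65 in Ocn+ and 12.47 in Osx+ cells, a difference of 0.18 (SE 0.25) with overlap. The osteocalcin genes were not analysed here, so the label of the Ocn+ group could not be set against its own gene.

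**Figure D4:**
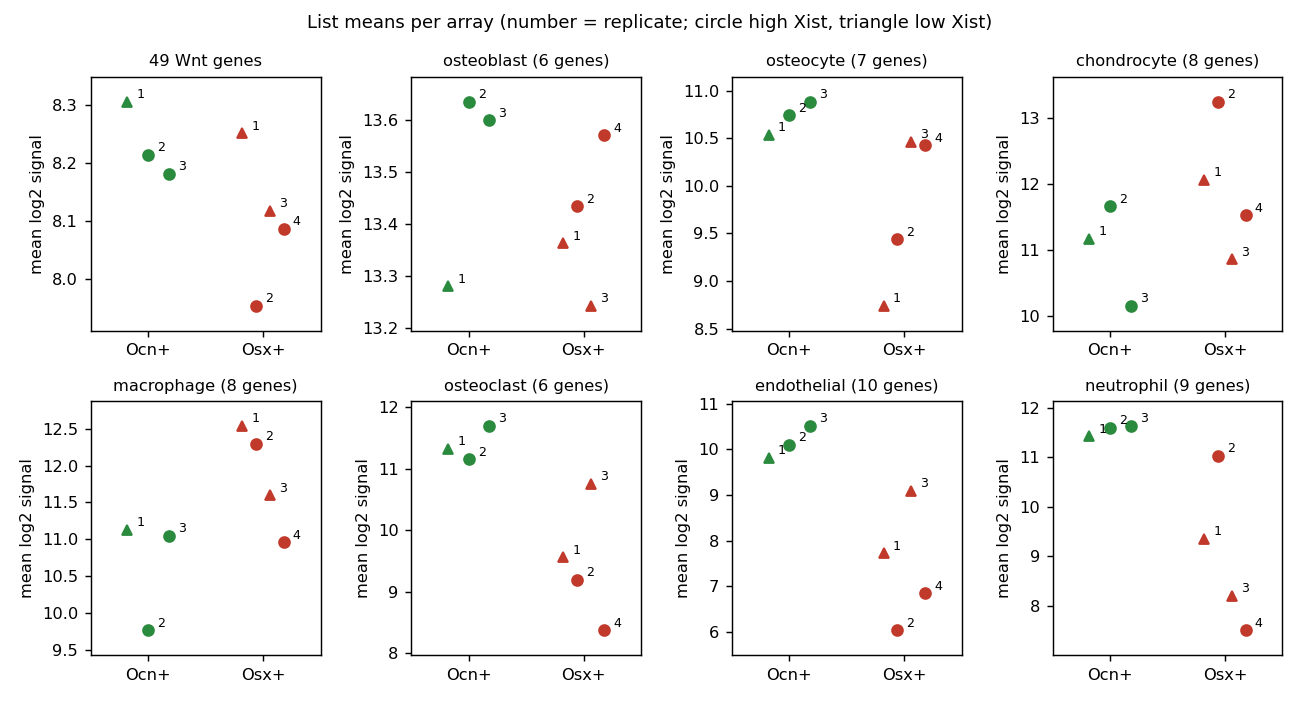
Mean log2 signal per array (y axis) of the 49 Wnt genes and of 7 marker lists in Ocn+ and Osx+ arrays (x axis); numbers are replicates and symbols the Xist class. The Wnt means overlap between groups, with Osx+ replicate 1 at 8.25 among the Ocn+ arrays (8.18 to 8.30), while the osteocyte (Sost included), osteoclast, endothelial and neutrophil means of all Ocn+ arrays exceed those of all Osx+ arrays.

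Several probe sets were present for 18 of the 49 genes. In 14 of them every probe set gave the same sign, and in Frzb, Fzd3, Fzd6 and Wnt8b the signs were mixed. When all probe sets of a gene were averaged, 8 Wnt genes (16.3%) were apart, Dkk3 and Nkd2 in addition to the 6, against 6.85% of all genes. With the probe set of largest variance the same 6 (12.2%) were, against 6.5% of all genes. The second Nkd2 probe set read 7.35, 7.18 and 7.33 in Ocn+ cells and 7.005, 5.71, 7.12 and 7.17 in Osx+ cells, a difference of 0.53 (SE 0.37).

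**Figure D5:**
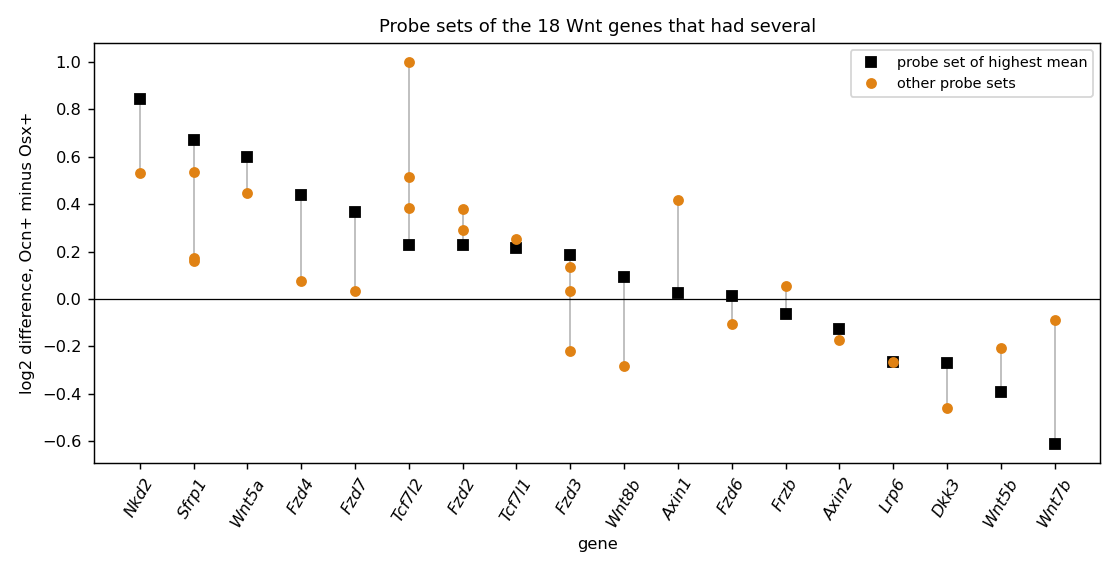
Log2 difference (Ocn+ minus Osx+, y axis) by the probe set of highest mean (squares) and by the other probe sets (circles) for the 18 Wnt genes with several (x axis). The spread within a gene is widest for Tcf7l2, from 0.23 to 1.00, and Lrp6 gives -0.26 and -0.27.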

How the data were processed

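RNA was extracted with Trizol and amplified (NuGEN Ovation V2), per the labels' protocols. The authors deposited 1 log2 value per probe set and array, computed by RMA according to the submitters' processing notes; this method quantile-normalizes arrays, so a change of all transcripts cannot be read. The array medians lay between 8.25 and 8.35. Of 22690 probe sets 64 were controls and 20380 had a single symbol, giving 12393 genes. Groups came from the sample titles. Ocn+ minus Osx+ was fitted on all genes in limma 3.58.1 (R 4.3.3; lmFit and eBayes, 2-sided); p-values were adjusted by Benjamini-Hochberg across the 12393 genes and called under 0.05; the script was tested on simulated data. Arrays have no read depth, and their number limits the precision. A fold is the brighter over the dimmer group mean, with the means taken on the log2 scale (a ratio of geometric means). The Wnt genes and lists were chosen with earlier results of these data known. Values per array are given for Wnt genes with an unadjusted p under 0.05 or no overlap and for the 2 of highest mean in each role. From each pathway list, up to 4 genes by the same limits are named, otherwise the 2 of smallest p. Of these pathway genes, Vangl2, Ror2 and Sost are given per array and the others by their difference only. Alternatives were a replicate block, arrays left out, dim genes left out, other normalization, prior, array weights, probe set choice and Xist class; a test of the difference between Xist classes was added after seeing the data.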

Additional observations from a re-analysis of the deposited data

Results flagged for a closer look

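Among the Osx+ arrays, Wnt3a in replicate 1 stood apart from the others, at 5.82 against 5.44 in the nearest array, a gap of 0.928 of the group's range and past the 95% limit of Dixon's test. Both values are dim, and chance marks some such groups, with 49 genes examined. A limma test of whether the reporter difference itself differed between the Xist classes called 0 of the 49 Wnt genes and 0 of all genes; an unadjusted p under 0.05 was found for 5 and 471 of them.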

How the results depend on the processing

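The alternatives numbered 19. No Wnt gene passed under any of them, the smallest adjusted p being 0.0649 (Wnt10a, array weights). Over all genes limma called 97 with array weights, 19 within the high-Xist arrays, and 0 to 3 with an array left out. The array weights were uneven, at 0.24 for Osx+ replicate 1, 0.35 for Osx+ replicate 3 and 6.02 for Ocn+ replicate 2. The weighted fit therefore leaned most on Ocn+ replicate 2. The count of Wnt genes without overlap was 6 to 13 with an array left out (12.2% to 26.5%, against 9.46% to 15.1% of all genes). Among genes above the median signal it was 2 of 21 (9.52%, against 7.6%), near the background. It was 30 (61.2%) and 31 (63.3%) within the high-Xist and low-Xist arrays, where fewer arrays raise the background to 55.2% and 59.7%. Among those 21 genes, 15 were higher in Ocn+ cells. The median difference of the Wnt genes was -0.031 to 0.12 with an array left out, 0.22 among genes above the 25th percentile of signal, 0.23 among those above the median, 0.16 with array weights and 0.17 within the high-Xist arrays. Of the 16 genes given in full, Axin1 and Tcf7l2 changed sign: Axin1 to -0.20 with the replicate block, -0.0056 with each array centred, -0.15 within the low-Xist arrays and -0.20 to 0.29 with an array left out, and Tcf7l2 to -0.044 within the low-Xist arrays. The cause was not tested. The other 289 comparisons kept their direction and stayed short of the threshold. Whether replicate numbers pair the arrays is not known. Deviations of same-numbered arrays correlated at 0.626, 0.447 and -0.304 for replicates 1, 2 and 3. Both arrays numbered 1 were in the low and both numbered 2 in the high Xist class, while the arrays numbered 3 were split. These correlations therefore cannot settle the pairing. With the replicate block 0 genes were called. An unadjusted limma p under 0.05 was then found for 828 of 12393 genes and 11 of the 49 Wnt genes. Signals near the bottom of the scale, as for Wnt10a and Wnt9a, may not be above background.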
